A study of Homo sapiens with 6 samples.

Results

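The genes of the proteasome were examined after knockdown of RNF25 in SW839 cells, a renal cell carcinoma line. They were chosen by name, as the rows of the table of normalized counts whose symbol begins with PSM, continues with a letter from A to G and ends in a number. PSMB8 and PSMB9, which this choice left out, are given beside them. The naming rule gave 45 genes of the 30267 in the table and uses no measured value, but it was chosen with earlier results of these data known. The proteasome degrades proteins that carry ubiquitin chains. Its 20S core is a barrel of alpha and beta rings in which 3 beta subunits cut peptide bonds, and its 19S cap recognizes the chain, removes it and threads the substrate into the barrel with a ring of ATPases. Dedicated assembly factors build both parts, activators other than the cap can open the barrel, and cells exposed to inflammatory signals replace the cutting subunits with immunoproteasome forms. RNF25 is a ubiquitin ligase, an enzyme of the step that marks proteins before the proteasome acts.

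Total RNA was sequenced from 3 libraries with an RNF25 hairpin (shRNF25, library names shRNF25B) and 3 with the pLKO vector (shControl), all from the same line. The library names of shControl 1 to 3 are PLKOseq422, PLKOseq48 and PLKO. They do not form a numbered series as those of shRNF25 do, and no batch was read from them. All 3 shRNF25 libraries carry the same hairpin name, and the labels do not say whether the libraries of a group came from separate cultures. The study describes its experiments in general as independent triplicates, and does not say what was repeated for these libraries. If they are technical repeats, p-values measure only technical spread. Counted reads ranged from 18647460 to 19943154 per library. RNF25 was 694.2, 533.5 and 536.4 normalized counts in shControl and 214.1, 245.7 and 265.0 in shRNF25, so that 41.1% of the control mean was left (log2 fold change -1.27, SE 0.150, adjusted p = 0.000585). Of 9 markers of renal carcinoma and epithelium, 8 had a row. PAX8, a kidney lineage factor, was between 76.7 and 140.3 normalized counts, CA9 was low, with 2 to 47 reads, and the keratins KRT8, KRT18 and KRT19 were at least 15768.1 in every library. Of the 7 that passed the filter, 1 was higher and 1 lower. VIM, a filament protein of mesenchymal and renal carcinoma cells, was higher in shRNF25 (log2 fold change 1.31, adjusted p = 0.00805) and KRT19, named after its values were seen, was lower (-0.47, adjusted p = 0.0278). PAX8 (-0.45, adjusted p = 0.11) and the epithelial adhesion protein EPCAM (-0.32, adjusted p = 0.0742) were below control in every shRNF25 library without passing the test. KRT8 (0.38, adjusted p = 0.111) and CDH2 (0.28, adjusted p = 0.117) were above control in every shRNF25 library, also without passing it. Of 11 markers of blood, vessel, nephron and liver cells, 9 had a row and 3 passed the filter on low values. Their summed level was 482.2 to 697.2 in shControl and 444.2 to 589.5 in shRNF25, and CD3E was at 0 or 1 read in every library. The endothelial cadherin CDH5 was lower in shRNF25 (log2 fold change -4.12, adjusted p = 0.000213). PECAM1, also endothelial, was 349.9 to 466.3 in shControl and 399.0 to 549.4 in shRNF25 (log2 fold change 0.17, adjusted p = 0.505). VWF, a further vessel marker, held 4 to 12 reads and was not tested. In bulk RNA, fewer cells that express a gene and less RNA per cell cannot be told apart.

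Promoters of proteasome genes are known to carry sites for CNC-type factors such as NFE2L1, whose core reads TGACNNNGC, and CCAAT boxes for the factor NF-Y. RefSeq windows of 300 bases around the start (GRCh38.p14) were at hand for 39 members, and both motifs were searched on both strands. TGACNNNGC was found in 14 of 39 members (35.9%), against 16.1% of 27305 genes. CCAAT was found in 19 of 39 (48.7%), against 39.7%. Both were found in 5 members, with no overlap between the matches. The stretches below are the upstream TGACNNNGC match nearest to the start in each role, where 10 bases on both sides lay in the window, with the matching letters in capitals, read on the strand given. The non-ATPase base had a match only in PSMD1, downstream of the start and at the edge of the window. The stretches show the sequence that the windows share apart from the gene names.
PSMA4, chr15:78540650-78540678, plus strand: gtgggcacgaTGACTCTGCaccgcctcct
PSMB3, chr17:38752627-38752655, plus strand: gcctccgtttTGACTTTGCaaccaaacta
PSMC5, chr17:63827654-63827682, minus strand: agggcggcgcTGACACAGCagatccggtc
PSMD3, chr17:39980760-39980788, plus strand: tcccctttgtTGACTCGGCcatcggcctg
PSMG2, chr18:12658689-12658717, plus strand: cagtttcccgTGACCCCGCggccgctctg
PSME4, chr2:53971009-53971037, plus strand: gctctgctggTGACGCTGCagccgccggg
The middle of the match lay 122 bases before the start in PSMA4, 100 in PSMB3, 53 in PSMC5, 33 in PSMD3, 35 in PSMG2 and 30 in PSME4. None of these 6 genes passed the test described next.

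The proteasome genes as a group stayed near their control level after RNF25 knockdown. Of the 45 genes, 44 passed the filter of at least 10 normalized counts in at least 3 libraries and were tested with limma among 16554 genes. At an adjusted p below 0.05, 3 of 44 (6.82%) were lower in shRNF25, against 10.8% of all genes tested, and 0 were higher, against 10.5%. In either direction the share of all genes was 21.3%. The 3 were PSMB2, PSMA2 and PSMA6, all of the 20S core. Under the study's criteria, which also ask for a fold of 1.5, 2 were lower (7.1% of all genes) and 0 higher (8.65%, and 15.7% in either direction). At an unadjusted p below 0.05, 4 were lower (18.0% of all genes) and 0 higher (17.3%), and edgeR and DESeq2 on the recovered reads each called the same 3 genes lower and 0 higher. The median log2 fold change was -0.12 over the members and -0.01 over all genes, with 30 members below zero and 14 above. Quantile normalization turned this direction, with 19 below zero, 25 above and a median of 0.02, and left the same 3 calls. The 95% interval lay within a 1.5-fold change in either direction for 38 of 44 members (86.4%), against 37.8% of all genes tested. These shares were not matched for expression level. PSMB11, a beta subunit of the thymus, was the gene that did not pass the filter, with 0 reads in the 3 control libraries and 2, 1 and 3 reads in shRNF25, at or under the floor of 3 reads at which no fold is given.

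**Figure D1:**
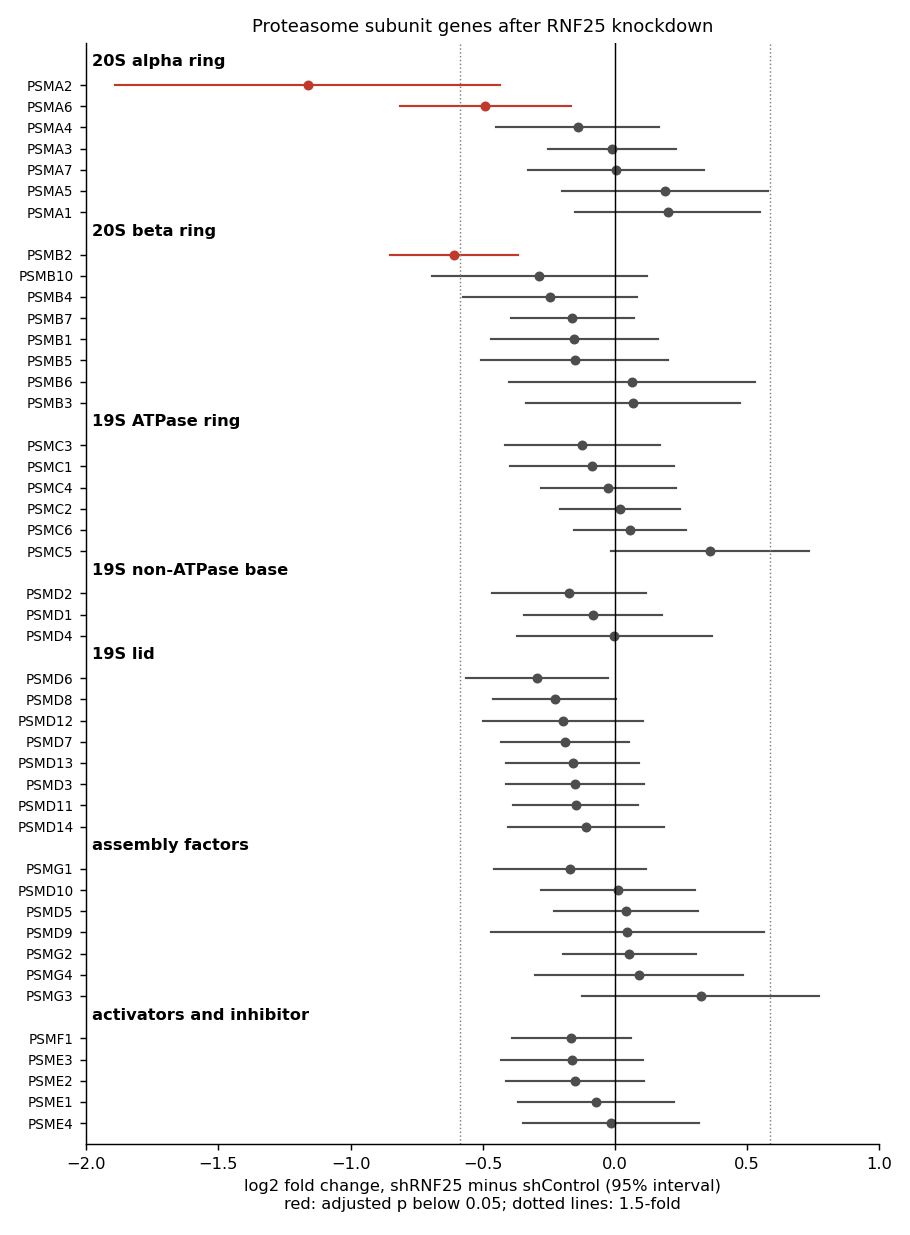
Log2 fold change of the 44 tested proteasome genes (shRNF25 minus shControl, x axis) with 95% intervals, grouped by role and ordered by size within each role. The 3 red genes (PSMA2, PSMA6, PSMB2) had an adjusted p below 0.05, and of the other genes only PSMD6 has an interval that leaves out zero.

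PSMB2 had the lowest adjusted p of the members. It encodes a beta ring subunit without a cutting site and lies on chromosome 1 (chr1:35599544-35641844, minus strand, GENCODE 29). PSMB2 was 3651.3, 3093.5 and 3254.0 normalized counts in shControl and 2050.2, 2296.8 and 2195.2 in shRNF25. Every shRNF25 library was below every control library, and 65.4% of the control mean was left. The log2 fold change was -0.61 (SE 0.107, 95% interval -0.85 to -0.37, adjusted p = 0.00435). It passed the test in all 17 alternatives, with log2 fold changes of -0.66 to -0.50 and adjusted p-values of at most 0.0397.

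In the alpha ring, which forms the gate of the barrel, 2 of 7 genes were lower and 0 were higher. Of all genes tested, 10.8% were lower and 10.5% higher. The median log2 fold change of the ring was -0.01. PSMA2 (chr7:42916857-42932223, minus strand) was 26.5, 14.4 and 24.8 normalized counts in shControl and 10.0, 9.24 and 7.63 in shRNF25. The groups did not overlap, but the shRNF25 libraries held only 8 to 11 reads. The log2 fold change was -1.16 (SE 0.323, adjusted p = 0.0321) on the log2(value + 1) scale, which understates changes of low genes. PSMA6 (chr14:35278633-35317493, plus strand), named after its values were seen, was 254.3, 304.7 and 336.7 in shControl and 206.8, 206.9 and 219.2 in shRNF25. Its log2 fold change was -0.49 (SE 0.143, adjusted p = 0.0387), again without overlap. Each of these genes passed in 9 alternatives, of 16 for PSMA2 and 17 for PSMA6, with adjusted p-values up to 0.129 and 0.149. Over these alternatives the log2 fold changes kept their sign, at -1.43 to -0.92 for PSMA2 and -0.60 to -0.40 for PSMA6. PSMA1, the largest rise in this ring, was 210.0 to 250.4 in shControl and 228.1 to 311.6 in shRNF25 (log2 fold change 0.20, 95% interval -0.15 to 0.55, adjusted p = 0.396). In GENCODE 29, 52.5% of the bases of the principal PSMA2 transcript and 81.0% of those of PSMA6 also belong to exons of another gene on the same strand, AC010132.3 and AL121594.1. Reads in shared exons can be left out of both genes when they are counted, and the rows of these 2 partners held 0 to 3 and 0 to 5 reads. The part of this in the 2 changes was not tested. Without the 5 members whose transcripts were shared in this way, 1 of 39 was lower (2.56%, against 10.8% of all genes tested), which was PSMB2.

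**Figure D2:**
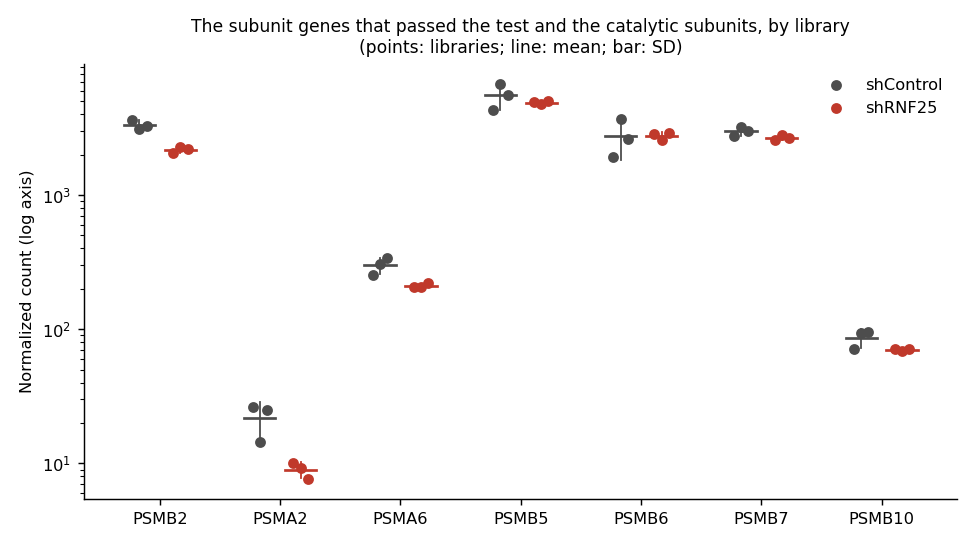
Normalized counts (log axis) of the 3 genes that passed the test and of 4 catalytic subunits in each library, with the mean and SD of 3 libraries a group. The groups are apart for PSMB2, PSMA2 and PSMA6 and overlap for PSMB5, PSMB6, PSMB7 and PSMB10.

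None of the catalytic subunits passed the test. PSMB5, the subunit that cuts after hydrophobic residues and the main target of proteasome inhibitors, was 4285.8, 6778.9 and 5529.2 in shControl and 4918.6, 4735.7 and 5016.6 in shRNF25. The shRNF25 values lay inside the control range, and the log2 fold change was -0.15 (95% interval -0.51 to 0.20, adjusted p = 0.521). PSMB6, which cuts after acidic residues, was 1911.3, 3702.9 and 2604.3 against 2836.5, 2570.1 and 2890.1 (log2 fold change 0.06, 95% interval -0.40 to 0.53, adjusted p = 0.853). PSMB7, which cuts after basic residues, was 2760.3, 3211.5 and 3015.5 against 2559.5, 2783.4 and 2676.5 (log2 fold change -0.16, 95% interval -0.39 to 0.07, adjusted p = 0.294). PSMB3, a structural subunit and the largest rise of the beta ring, had a log2 fold change of 0.07 (95% interval -0.34 to 0.47, adjusted p = 0.818). The intervals give the range of changes that these libraries leave possible for each subunit. In the beta ring 1 of 8 tested genes was lower and 0 were higher, against 10.8% and 10.5% of all genes tested. The median log2 fold change of this ring was -0.16.

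The immunoproteasome forms were compared with the standard subunit of the same place in the ring. PSMB10, the form that replaces PSMB7, was 70.7, 94.4 and 95.0 normalized counts in shControl and 71.1, 68.3 and 71.5 in shRNF25 (log2 fold change -0.29, 95% interval -0.69 to 0.12, adjusted p = 0.291). It amounted to 2.56, 2.94 and 3.15% of PSMB7 in shControl and 2.78, 2.46 and 2.67% in shRNF25. The groups overlapped, and the log2 ratio differed by -0.12 (two-sided exact permutation p = 0.3, adjusted over 3 ratios 0.3). PSMB8 was 20.3, 20.3 and 17.8% of PSMB5 in shControl and 14.9, 14.6 and 14.8% in shRNF25. PSMB9 was 8.16, 8.23 and 6.92% of PSMB6 against 3.85, 3.92 and 3.53%. For both, every shRNF25 library was below every control library, with log2 ratios that differed by -0.40 and -1.03 (exact permutation p = 0.1 each, the smallest that 3 against 3 allows, adjusted 0.15). As single genes, PSMB8 (log2 fold change -0.55, adjusted p = 0.0431) and PSMB9 (-0.97, adjusted p = 0.0186) both passed the test. Neither call held without any 1 of the shRNF25 libraries (adjusted p = 0.127 to 0.155 for PSMB8 and 0.0695 to 0.0754 for PSMB9), while the log2 fold changes were -0.57 to -0.52 and -1.01 to -0.95. In these 3 fits the share of all genes called lower was 5.14 to 5.21%, against 10.8% with all libraries. That of PSMB8 was also lost without shControl 2 or 3 (adjusted p = 0.0767 and 0.0518), without a filter on low values and under both other scalings, with log2 fold changes of -0.55 to -0.47 in these last 3. PSMB10 shares 45.3% of its transcript with AC040162.1 on the same strand, and reads in shared exons can be left out when they are counted. Its ratio to PSMB7 is therefore not read as a ratio of transcripts. The part of the sharing in this ratio was not tested.

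**Figure D3:**
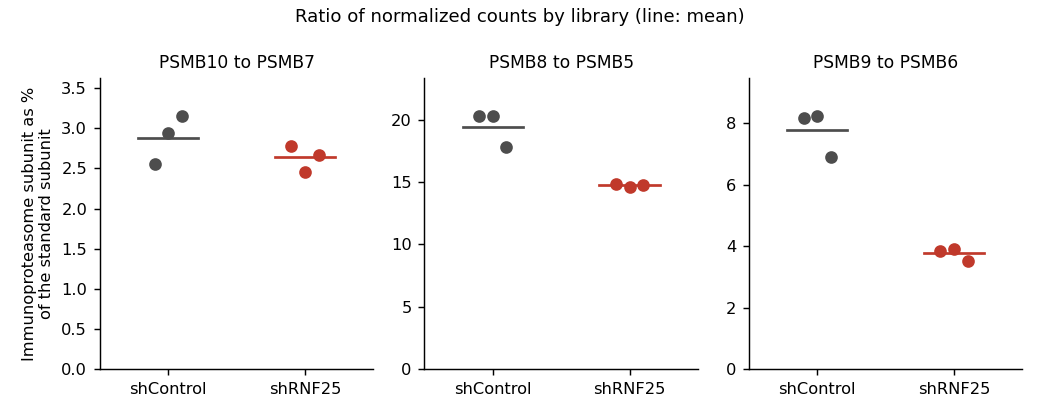
Normalized count of an immunoproteasome subunit as a percentage of the standard subunit it replaces (y axis, from 0), in each library, with the group mean as a line. The groups overlap for PSMB10 to PSMB7, and the shRNF25 libraries are below the control libraries for PSMB8 to PSMB5 and PSMB9 to PSMB6.

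In the 19S cap, 0 of 17 genes passed the test in either direction (21.3% of all genes tested). At an unadjusted p below 0.05, 1 was lower (18.0% of all genes). Of the 6 ATPases that unfold the substrate, 3 were below zero and 3 above. PSMC5 had the largest positive log2 fold change of all members. It was 1810.7, 2856.5 and 2571.9 normalized counts in shControl and 3078.9, 2786.2 and 3272.3 in shRNF25. The log2 fold change was 0.36 (SE 0.166, 95% interval -0.01 to 0.73, adjusted p = 0.156), and the groups overlapped through shControl 2. On the other strand, 27.2% of the PSMC5 transcript is shared with another gene. The study's methods name a kit for stranded libraries, but whether reads were counted by strand is not given in the sources used here. PSMC3 was 2763.6, 3785.0 and 3085.7 against 2765.4, 2964.5 and 3045.4 (log2 fold change -0.12, 95% interval -0.42 to 0.17, adjusted p = 0.531). PSMD2, a scaffold of the base that receives ubiquitin receptors, had the highest normalized count of all members, with 15673.0, 21141.2 and 17990.6 in shControl and 15740.7, 15523.2 and 16998.1 in shRNF25. Its log2 fold change of -0.17 (95% interval -0.47 to 0.12, adjusted p = 0.372) turned to 0.15 under quantile normalization.

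The lid holds the deubiquitinase that removes the chain. All 8 of its genes had log2 fold changes below zero, between -0.29 and -0.11 with a median of -0.18, and 0 passed the test. Under quantile normalization 6 of 8 were below zero, with a median of -0.07. PSMD6, a structural lid subunit, was 1835.0, 1480.6 and 1466.7 in shControl and 1245.6, 1283.7 and 1349.7 in shRNF25 (log2 fold change -0.29, SE 0.119, 95% interval -0.56 to -0.03, adjusted p = 0.111). It was 1 of 3 lid genes without overlap between the groups, beside PSMD7 and PSMD8, which are named after their values were seen. On the other strand, 50.4% of the PSMD7 transcript is shared with another gene. Over all members the groups did not overlap for 7 genes, all lower in shRNF25, while of all genes tested 42.5% did not overlap, 21.8% lower and 20.7% higher.

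Of the 7 assembly factors, 6 had log2 fold changes above zero and 0 passed the test (median 0.05), and without shControl 3 only 3 of 7 were above zero. PSMG3, a chaperone of the alpha ring, was 575.9, 1075.3 and 818.1 in shControl and 1026.0, 952.1 and 1017.0 in shRNF25 (log2 fold change 0.32, 95% interval -0.12 to 0.77, adjusted p = 0.277). PSMG1, of another chaperone pair for the same ring, had the only negative value (-0.17, 95% interval -0.46 to 0.12, adjusted p = 0.376). The long noncoding RNA PSMG3-AS1, no member and looked at after its values were seen, starts 80 bases from PSMG3 on the opposite strand (chromosome 7, base 1570073 against 1569993 for the principal transcripts). PSMG3-AS1 was 92.9, 99.5 and 155.4 normalized counts in shControl and 246.9, 282.6 and 275.5 in shRNF25. The groups did not overlap, and the log2 fold change was 1.24 (SE 0.202, adjusted p = 0.00312). The principal transcripts of the 2 genes share 0.0% of their bases. Among the alternative caps and the inhibitor PSMF1, all 5 genes were below zero, between -0.17 and -0.02, and 0 passed the test. Under quantile normalization 3 of these 5 were below zero. PSMF1, which binds the 20S core, was 4177.5, 4022.0 and 4050.6 against 3372.3, 3889.8 and 3673.6 (log2 fold change -0.17, 95% interval -0.39 to 0.06, adjusted p = 0.268), without overlap.

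Levels were compared between members per kilobase of the principal transcript. In shControl, the 39 tested members that shared under 10% of their transcript with a gene on the same strand ranged from 213.7 normalized counts per kb (PSMD5) to 7070.5 (PSMA7), with a median of 1293.1. Sharing on the other strand was not used for this split, and PSMC1, with 82.1% shared in that way, was at 234.3 per kb. The 5 that shared more on the same strand, PSMA1, PSMA2, PSMA6, PSMB10 and PSMD9, ranged from 14.7 to 290.2 with a median of 82.5. Their partners are protein-coding genes of GENCODE 29 that share exons with them. AC018523.2, the partner of PSMA1, and WDR66, a partner of PSMD9, have no row in the table of normalized counts. Whether reads were also assigned to these is therefore not known. Among these 5 members, PSMD9 is an assembly factor and PSMB10 an immunoproteasome form. The levels of these 5 members are not read as their transcript amounts, and the part of the sharing in them was not tested. Among the others, the median 20S subunit was 1.96, 2.87 and 2.6 times the median 19S subunit per kb in shControl and 2.31, 2.3 and 2.22 times in shRNF25, with the shRNF25 ratios inside the control range. Of 19 pseudogenes of PSM genes with a row, the highest mean was 38.5 normalized counts (PSME2P1), far below the parent gene.

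**Figure D4:**
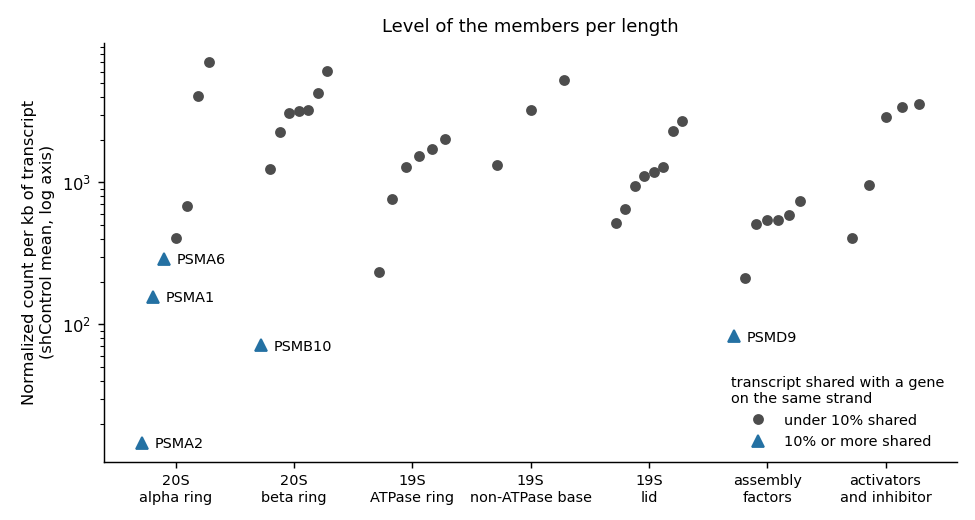
Normalized count per kb of principal transcript (shControl mean of 3 libraries, log axis) of the 44 tested members, by role. The 5 triangles are members that share 10% or more of their transcript with another gene on the same strand, and they lie between 14.7 and 290.2.

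The control libraries differed among themselves more than the shRNF25 libraries did, and the proteasome genes followed this. The coefficient of variation had a median of 14.5% in shControl and 4.74% in shRNF25 over the members. It was wider in shControl for 41 of 44 members (93.2%), against 83.3% of all genes tested and 88.5% of those with a mean of at least 100. The summed level of the 45 genes was 118012.8, 142558.9 and 124702.6 normalized counts in shControl and 116415.8, 117330.5 and 122448.9 in shRNF25. As a share of all normalized counts, this was 0.535, 0.702 and 0.62% in shControl and 0.659, 0.643 and 0.674% in shRNF25. The shRNF25 shares lay inside the control range. Deviations are given on the log2 scale, from the mean of the other libraries of the same group. Within shControl the members deviated by a median of -0.20, 0.21 and -0.04 in libraries 1 to 3. As a description across 44 members, which share each library, the deviation correlated with the GC content of the transcript at Pearson's r = -0.60 in shControl 1, 0.53 in shControl 2 and 0.35 in shControl 3. Over 13109 protein-coding genes the values were -0.56, 0.34 and 0.38. In shRNF25 libraries 1 to 3 they were -0.16, -0.062 and 0.25 over the members. Over the protein-coding genes they lay between -0.02 and 0.012 in these libraries. Without shControl 1, 9 of 44 members were lower (PSMA6, PSMB2, PSMB4, PSMB5, PSMB7, PSMD13, PSMD3, PSMD8 and PSME2) and 0 higher, while 17.9% of all genes tested were lower. Without any 1 of the shRNF25 libraries only PSMB2 was lower, with 5.14 to 5.21% of all genes lower. Without shControl 3 it was again only PSMB2, with 11.8% of all genes lower, and without shControl 2 the lower members were PSMA2 and PSMB2, with 8.39%. An adjustment of each library for transcript GC and length, chosen after seeing the data, gave 4 lower members, the same 3 and PSMD6, with 17.4% of all genes lower.

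**Figure D5:**
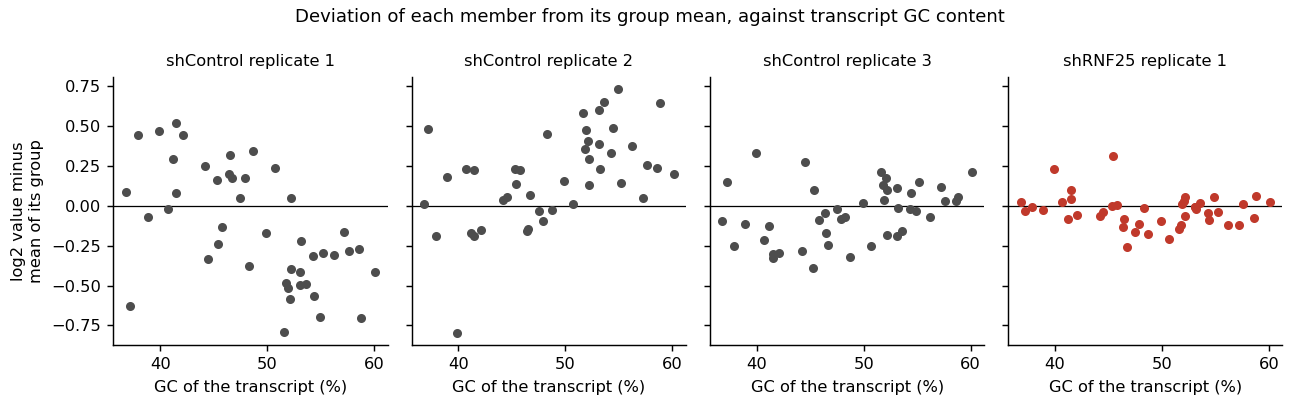
Deviation of each of the 44 tested members from the mean of the other libraries of its group (log2 scale, y axis) against the GC content of its principal transcript (percent, x axis), in the 3 control libraries and, for comparison, shRNF25 replicate 1. The group mean named on the y axis leaves out the library itself. The deviations fall with GC content in shControl 1 (r = -0.60) and rise with it in shControl 2 (r = 0.53).

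Lists of genes that act with the proteasome were described in the same way, against the 10.8% of all genes tested that were lower and the 10.5% that were higher. The lists were chosen with earlier results of these data known. Their shares, here and in the next paragraph, are therefore descriptions and no test of a list. AKIRIN2, NFYA, UBXN1, COPS6, COPS5 and CCT6A, which did not reach a fold of 1.5, were named after their values were seen. Of 12 proteasome genes outside the naming rule, 3 were lower (25.0%) and 0 higher: PSMB8, PSMB9 and AKIRIN2, which brings proteasomes into the nucleus (AKIRIN2 log2 fold change -0.56, adjusted p = 0.0389). POMP, which matures the 20S core, and ADRM1, a ubiquitin receptor of the cap, had log2 fold changes of 0.10 (adjusted p = 0.6) and -0.20 (adjusted p = 0.245). Of 12 regulators of proteasome genes, 2 were lower (16.7%) and 0 higher. NFE2L1, the activator of proteasome genes, was 7783.4, 8621.7 and 9737.3 in shControl and 7556.5, 7353.9 and 7542.5 in shRNF25 (log2 fold change -0.21, 95% interval -0.46 to 0.04, adjusted p = 0.205), without overlap. BACH1, a repressor that competes at the same type of site, was 1430.4, 1171.7 and 1233.6 against 595.9, 547.6 and 583.3 (log2 fold change -1.15, SE 0.116, adjusted p = 0.000275). The other was NFYA, a subunit of NF-Y (log2 fold change -0.39, adjusted p = 0.0347).

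Among 13 ubiquitin receptors and cofactors of p97, the ATPase that extracts proteins for the proteasome, 4 were lower (30.8%) and 0 higher, again beside 10.8% and 10.5% of all genes. UBQLN1, a shuttle that carries ubiquitinated proteins to the cap, was 3659.0, 3009.3 and 2981.0 in shControl and 1996.4, 2082.5 and 2145.6 in shRNF25 (log2 fold change -0.63, SE 0.113, adjusted p = 0.00488). NSFL1C, the p97 cofactor p47, was 4816.4, 4941.3 and 4957.2 against 2922.2, 3504.7 and 3276.1 (log2 fold change -0.60, SE 0.105, adjusted p = 0.004). The cofactor UBXN1 was lower as well (log2 fold change -0.37, adjusted p = 0.0277). Of 6 ubiquitin and activating enzyme genes, 0 passed the test, while 3 had an unadjusted p below 0.05 and a negative fold change, which 18.0% of all genes had. The COP9 signalosome, whose subunits resemble the lid, had 1 lower gene, COPS6 (-0.40, adjusted p = 0.0425, and 0.0529 with edgeR), and 1 higher gene, COPS5 (0.36, adjusted p = 0.0367), of 10. The cytosolic chaperonin, another multi-subunit ring, had 1 lower gene of 8, CCT6A (-0.43, adjusted p = 0.0333), and 0 higher. The medians of these 3 complexes were -0.12 for the proteasome genes, -0.01 for the signalosome and -0.23 for the chaperonin, each taken from its own genes with no test of a difference between them.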

How the data were processed

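Per the labels, RNA-seq was made from total RNA of SW839 cells. The submitters' processing notes name fastp, HISAT2, HTSeq and GRCh38, without versions. The annotation and the strand setting of the counting are not given in the sources used here. According to the study's methods, ribosomal RNA was depleted and a kit for stranded libraries was used. The authors deposited 1 table of normalized counts, a signal per gene and library. Its values came back as whole reads for 100% of entries (within 0.001 reads) after division by a step that equals DESeq2's size factor (0.9046 to 1.097), so library size is already corrected, and GC content, length and batch are not.

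Groups and replicate numbers follow the titles. The label for treatment names the shRNF25 plasmid for the control samples too, and was not used. Values were compared as log2(normalized count + 1) with limma 3.58.1 (lmFit, eBayes with trend, R 4.3.3), group as the only term, in genes with at least 10 in at least 3 libraries, and Benjamini-Hochberg adjusted over all genes tested. Ratios were compared by two-sided exact permutation tests (scipy 1.17.1). Alternatives were edgeR 4.0.16 and DESeq2 1.42.0 on the recovered reads, other pseudocounts, filters, scalings and designs, and each library left out. Each fit was tested on simulated data with known changes. The simulation had the same spread in both groups and no effect of GC content. It therefore does not show how the fits behave with the unequal spread and GC trends of these libraries. Transcript features came from GENCODE 29, with 28143 of 30267 symbols matched to 1 gene, and promoter windows from RefSeq. At this depth a gene at 3 reads or fewer is at the floor, which covers counting error only.

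The members and lists were chosen with earlier results of these data known. Named genes were the catalytic subunits, members past the study's criteria, the largest rise and fall of each role, members under the filter, PSMB8, PSMB9, NFE2L1, POMP, ADRM1, up to 3 genes of each other list past those criteria, and RNF25. Any other gene that is named was chosen after its values were seen. The values of 1 gene of the lists are not reported here.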

Additional observations from a re-analysis of the deposited data

How the results depend on the processing

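The count of 3 lower members at an adjusted p below 0.05 was 1 without a filter on low values, and 1 to 9 when a library was left out. The count of 2 under the study's criteria was 1 without the filter, with a filter of 50, with quantile normalization, with a median ratio over the more abundant genes (mean of 100 or more), with library weights by group (chosen after seeing the data) and with edgeR, and 0 to 2 when a library was left out, 0 without shRNF25 replicate 1. Higher members were 0 in every setting and under both criteria. Quantile normalization moved the median log2 fold change to 0.138 for the alpha ring, -0.0663 for the lid and -0.0056 for the activators and inhibitor. For the last of these the median ratio gave -0.0845, the adjustment for GC content and length -0.1883, and leaving out a library -0.1728 to -0.0803. The log2 fold change took the other sign in at least 1 alternative for 23 of 44 members. Of the genes named by rule, direction turned for PSMB5 (0.0247 with quantile normalization, -0.3245 to 0.0062 when a library was left out), PSMB6 (-0.169 to 0.3078), PSMB3 (-0.096 to 0.285), PSMC3 (0.0104 with quantile normalization, -0.2256 to 0.0012) and PSMD2 (0.1533 with quantile normalization). The negative ends for PSMB6 and PSMB3 came without shControl replicate 1 and the positive ends for PSMB5 and PSMC3 without shControl replicate 2. None of these passed the test with all libraries, and PSMB5 was called lower without shControl replicate 1. The cause was not tested.

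Replicate numbers did not pair the libraries (r of -0.0638, -0.0874 and 0.0471 between deviations of same-numbered libraries). With the replicate number as a block, 2 members were lower (PSMB2 and PSMA2) and 2 under the study's criteria. Depth limits PSMA2, PSMB10 and PSMB11, and transcript sharing on the same strand limits PSMA1, PSMA2, PSMA6, PSMB10 and PSMD9. The libraries were made with a stranded kit, according to the study's methods, but whether reads were counted by strand is not given. Sharing of 10% or more on the other strand was present in PSMC1 (82.1%), PSMD7 (50.4%), PSMC5 (27.2%), PSMG2 (17.3%), PSMD13 (15.9%) and PSME2 (12.0%). Its part in their values was not tested.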
